A study of Mus musculus with 15 samples.

Results

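Amino acid transporters carry amino acids across the cell membrane, and 9 of them were listed for description in melanocytes under low oxygen. Members were taken by gene symbol, from probe sets that the platform annotation gives exactly 1 symbol, and for a gene with 2 such probe sets the brighter on average over all arrays stood for it. This found 8 of the 9, among 22180 genes measured in this way: Slc7a11, Slc7a5, Slc7a1, Slc3a2, Slc1a4, Slc1a5, Slc38a1 and Slc38a2. The glycine transporter Slc6a9 shared its probe set with another gene, so no value is given for it. Slc7a11 and Slc1a5 had 2 probe sets each and the others 1.

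The cells, named melan-Ink4a-Arf-1, are an immortal pigment cell line grown from Cdkn2a tm1RDp/tm1RDp mice, which lack the Ink4a and Arf tumour suppressors, so every group carries that deletion. Affymetrix arrays were run on total RNA from 5 groups of 3 cultures, described as biological triplicates. Normoxia was about 21% oxygen with 10% CO2. The hypoxia control, the negative control, Si1 and Si6 all had 24 h at 1% oxygen, 5% CO2 and 94% nitrogen, so oxygen and CO2 changed together. Si1 and Si6 received HIF1A small interfering RNAs (siRNAs) 24 h before hypoxia, whereas the labels do not say what the negative control or the hypoxia control received. Phorbol ester (200 nM), cholera toxin (200 pM) and 10% serum were present in the culture medium of all groups. Values are log2 intensities, in which 1 unit is a doubling. Means are given with ± the SD of their 3 arrays, log2 changes with ± the standard error from limma, and adjusted p-values are limma's after Benjamini-Hochberg adjustment over all 22180 genes, with 0.05 as the threshold.

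These proteins divide into several families. SLC7A5 (LAT1), which exchanges large neutral amino acids such as leucine, and SLC7A11 (xCT), which takes up cystine in exchange for glutamate, are light chains that reach the membrane bound to the heavy chain SLC3A2 (CD98). SLC7A1 (CAT1) carries arginine and lysine without that heavy chain. SLC1A4 and SLC1A5 (ASCT1 and ASCT2) exchange small neutral amino acids including serine, and SLC1A5 also glutamine. SLC38A1 and SLC38A2 take up glutamine and alanine with sodium. Several of these genes are known targets of ATF4, a transcription factor made when amino acids are short or the endoplasmic reticulum is stressed. In mouse melanocytes the subtle gray mutation of Slc7a11 lowers the yellow pigment pheomelanin, which is built from cysteine.

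Promoter sequences of 2 members are shown because they held matches to the core of the ATF4 response element. They were also picked because both genes rose strongly with the siRNAs in the results that follow. The windows are RefSeq's, on build GRCm38.p6, from 250 bases before to 50 bases after the gene's start, read on the gene's strand. Both are minus-strand genes, Slc7a11 at chr3:50443564-50443863 and Slc1a4 at chr11:20332664-20332963. Capitals mark matches to TGATGNAA on either strand, the core of the C/EBP-ATF response element that ATF4 binds.
Slc7a11: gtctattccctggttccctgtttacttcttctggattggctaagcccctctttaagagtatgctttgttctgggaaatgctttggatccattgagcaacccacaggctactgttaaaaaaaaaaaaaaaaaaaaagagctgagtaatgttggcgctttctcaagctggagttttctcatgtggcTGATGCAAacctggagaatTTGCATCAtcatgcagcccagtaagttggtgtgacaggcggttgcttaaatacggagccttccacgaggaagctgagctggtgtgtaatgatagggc
Slc1a4: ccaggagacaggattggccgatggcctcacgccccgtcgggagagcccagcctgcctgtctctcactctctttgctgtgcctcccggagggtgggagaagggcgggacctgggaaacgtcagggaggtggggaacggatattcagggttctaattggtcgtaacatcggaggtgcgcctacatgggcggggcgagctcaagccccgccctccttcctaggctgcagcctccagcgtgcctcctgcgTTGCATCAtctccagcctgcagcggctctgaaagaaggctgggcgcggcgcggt

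The Slc7a11 window held 2 copies in opposite orientation, whose first bases lay 66 and 47 bases before the start. That of Slc1a4 held 1, beginning 4 bases before the start and read on the opposite strand. All 3 were the stricter form TGATGCAA. Among all 32851 RefSeq windows of this length, 3.97% held TGATGNAA and 0.895% held TGATGCAA. By gene, the shares were 4.51% and 1.03% of 27025 genes. Windows were found for 6 of the 9 listed genes, 9 windows in all, and no match to TGATGNAA lay in those of Slc7a1, Slc3a2, Slc38a2 or Slc6a9. Against the negative control Slc7a1 rose by 1.59 with Si1 and 1.42 with Si6, and Slc1a4 by 1.88 and 1.43. Slc3a2 was at 0.12 and 0.33, and Slc38a2 at 0.18 and 0.11. Whether motif and rise go together was not tested. No window is given here for Slc7a5, Slc1a5 and Slc38a1. The hypoxia response element core ACGTG (either strand) lay in the window of Slc3a2 alone, 164 bases before the start, and was in 19.6% of all windows. GCGTG, the other form of that core, was in 6 of the 9 windows, at Slc7a1, Slc1a4, Slc38a2 and Slc6a9, and in 32.4% of all windows. The E-box CACGTG, which contains ACGTG, was in 0 of 9 windows and in 7.15% of all. The antioxidant response element core TGACNNNGC was in 4 of 9, at Slc7a1, Slc38a2 and Slc6a9, and in 12.4% of all. These matches describe letters in short windows and show no binding.

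The arrays were similar in distribution, with medians of 6.52 to 6.61, and no array stood apart. The siRNA target Hif1a was at 25.3% of the negative control level in Si1 and 30.7% in Si6. All 8 melanocyte markers checked were bright in every group, their lowest group mean being 7.80 for Kit, and their mean over the list ran from 11.83 to 11.89 in normoxia, 11.65 to 11.69 in the hypoxia control, 11.08 to 11.17 in the negative control, 10.82 to 10.86 in Si1 and 11.39 to 11.48 in Si6. The mean of 4 leukocyte markers ran from 5.96 to 6.11 in normoxia, 6.14 to 6.24 in the hypoxia control and 6.03 to 6.21 in the negative control. It ran from 6.47 to 6.49 in Si1 and 6.17 to 6.20 in Si6. Against the negative control 2 of the 4 were higher in Si1 (20.2% of all genes), Cd68 by 1.33 and Itgam by 0.22, and 0 were lower (14.8%). Group means of the defining marker Ptprc lay between 4.43 and 4.58. The mean of 5 fibroblast markers ran from 7.03 to 7.13 in normoxia, 6.69 to 6.80 in the hypoxia control, 6.75 to 6.89 in the negative control, 6.50 to 6.63 in Si1 and 6.69 to 6.83 in Si6. In the hypoxia control 3 of the 5 were lower than in normoxia and 0 higher (11.2% and 9.87% of all genes). Col1a1 fell most, at 8.34 against 9.35, and was at 7.96 in Si1. List means of keratinocyte (4 of 5 measured) and endothelial markers (3 of 3) ran from 5.90 to 6.10 and 5.92 to 6.29 over all arrays. The part of the marker shifts in the results was not tested. In bulk RNA, fewer cells of a type and less RNA per cell cannot be told apart.

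**Figure D1:**
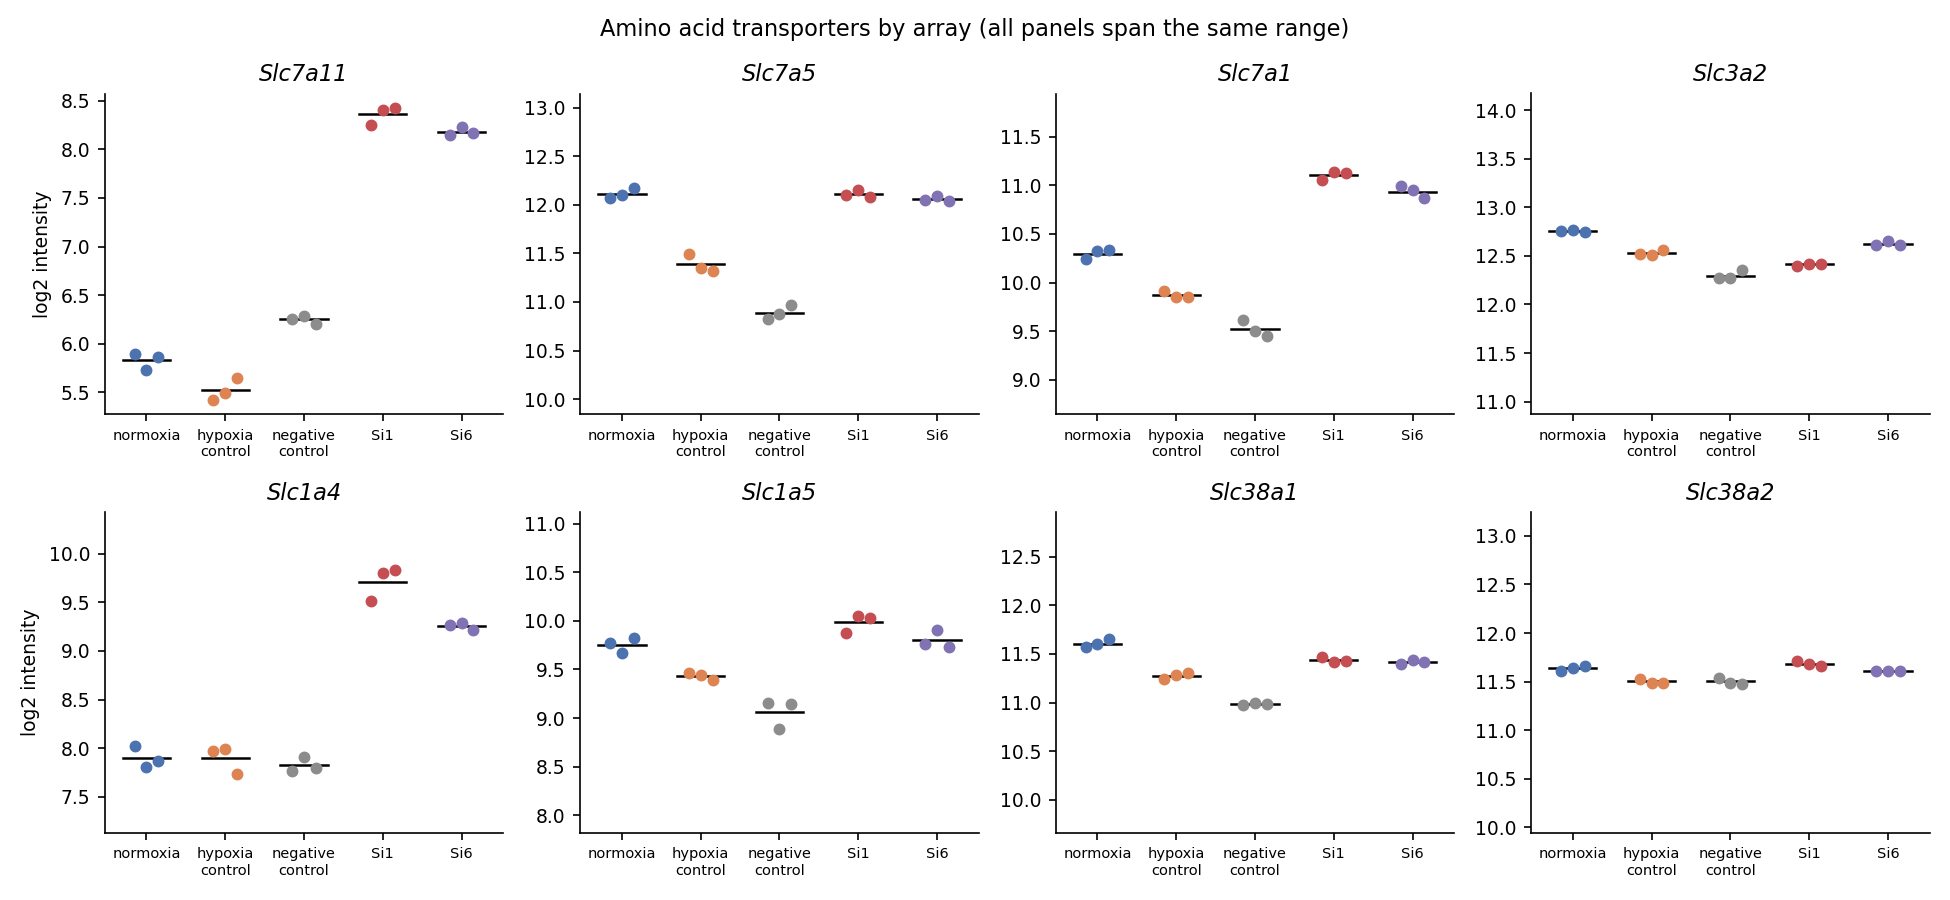
Log2 intensity of the 8 transporters on each of 15 arrays, 3 points a group with the group mean as a line; panels have the same vertical span but different levels. Slc7a11, Slc7a1 and Slc1a4 were highest in Si1 and Si6, whereas Slc7a5, Slc3a2 and Slc38a1 had their highest mean in normoxia. For Slc7a5 the normoxia arrays overlapped those of Si1.

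Most of the transporters were lower under hypoxia, by small amounts. Between the hypoxia control and normoxia 7 of 8 fell and 0 rose, against 11.2% of all genes lower and 9.87% higher. Bright genes were called more often. With the dimmest 50% of genes left out, Slc7a11 among them, 5015 of 11090 genes were called in either direction. The median change of the 8 was -0.31, against 0 over all genes. The leucine transporter Slc7a5 fell most, by 0.73 ± 0.06 on the log2 scale (adjusted p = 2.5e-07), which left 60.3% of its normoxic level. The arginine carrier Slc7a1 followed at -0.42 ± 0.06 (adjusted p = 4.0e-05), then Slc38a1 at -0.34 ± 0.04 (adjusted p = 4.9e-05), Slc1a5 at -0.32 ± 0.08 (adjusted p = 0.006), Slc7a11 at -0.31 ± 0.07 (adjusted p = 0.004) and the heavy chain Slc3a2 at -0.22 ± 0.04 (adjusted p = 0.002). Slc38a2 passed narrowly, at -0.13 ± 0.04 (adjusted p = 0.043), and its call was lost when any 1 of the 6 arrays was left out (adjusted p = 0.057 to 0.125). Slc1a4 was level, at 0 ± 0.09 with a 95% interval of -0.19 to 0.19. On the average of both probe sets, the falls of Slc7a11 and Slc1a5 came to -0.10 and -0.12 and did not pass (adjusted p = 0.320 and 0.295). Slc7a11 was dim here, its means of 5.83 and 5.52 lying below the array medians of 6.52 to 6.61.

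Slc7a5 makes the fall visible array by array. It read 12.07, 12.10 and 12.17 in normoxia, 11.49, 11.35 and 11.32 in the hypoxia control, 10.82, 10.88 and 10.97 in the negative control, 12.10, 12.15 and 12.08 in Si1 and 12.05, 12.09 and 12.04 in Si6. The hypoxic control arrays lay wholly below normoxia, the negative control wholly below both, and the arrays of Si1 overlapped those of Si6 and of normoxia.

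The negative control, although equally hypoxic, lay lower still for most transporters and higher for Slc7a11. Against the hypoxia control 5 of 8 fell and 1 rose, where 7.51% of all genes were lower and 7.80% higher. Slc7a5 was at -0.50 ± 0.06 (adjusted p = 2.0e-05), Slc1a5 at -0.37 ± 0.08 (adjusted p = 0.003), Slc7a1 at -0.35 ± 0.06 (adjusted p = 3.4e-04), Slc38a1 at -0.29 ± 0.04 (adjusted p = 3.0e-04) and Slc3a2 at -0.24 ± 0.04 (adjusted p = 0.001). The cystine transporter Slc7a11 rose instead, by 0.73 ± 0.07 (adjusted p = 2.8e-06), with both group means below the array medians. Slc1a4 (-0.07, 95% interval -0.26 to 0.12) and Slc38a2 (0, -0.10 to 0.09) did not pass. Against normoxia, the negative control had 6 of 8 transporters lower and 1 higher (15.7% and 14.6% of all genes), with Slc7a5 at 42.7% and Slc7a1 at 58.4% of the normoxic level and Slc7a11 at 134%. Here too the small fall of Slc38a2, -0.13 ± 0.04 (adjusted p = 0.028), lost its call when replicate b or c of either group was left out (adjusted p = 0.068 to 0.082). These comparisons share arrays with each other and with the hypoxia comparison, so they are not independent of it. With the dimmest 50% of genes left out, 3850 of 11090 were called against the hypoxia control and 6404 against normoxia.

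With Hif1a depleted under hypoxia, the transporters were higher. Against the negative control 7 of 8 rose and 0 fell with Si1, where 20.2% of all genes were higher and 14.8% lower. With Si6 also 7 of 8 rose and 0 fell, where 17.0% of all genes were higher and 11.9% lower. The median change of the 8 was 1.07 with Si1 and 0.95 with Si6, against -0.01 over all genes in each. With the dimmest 50% of genes left out, Slc7a11 among them, 7101 of 11090 genes were called with Si1 in either direction and 6365 with Si6. The siRNA groups share the negative control arrays. The members, and the gene lists described further on, were chosen with earlier results of these data known.

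Slc7a11, the cystine transporter, changed most. It read 5.90, 5.73 and 5.86 in normoxia, 5.42, 5.49 and 5.65 in the hypoxia control, 6.26, 6.29 and 6.20 in the negative control, 8.25, 8.41 and 8.43 in Si1 and 8.15, 8.23 and 8.17 in Si6. No group overlapped another, and both siRNA groups lay far above the other 3. All readings of those 3 were dim, below the array medians of 6.52 to 6.61. Against the negative control the level was 4.33-fold with Si1 (2.11 ± 0.07, adjusted p = 8.2e-12) and 3.82-fold with Si6 (1.94 ± 0.07, adjusted p = 4.2e-11).

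These values come from probe set 17405082. The dimmer probe set of Slc7a11, 17397421, had a mean of 4.20 over all arrays and lay between 4.02 and 4.38 throughout, with a change of 0 ± 0.08 with each siRNA. Averaging the probe sets gave Slc7a11 a rise of 1.06 with Si1 and 0.97 with Si6, both of which still passed. The second probe set of Slc1a5, 17486956, was also dimmer, at a mean of 6.46, and its changes were 0.01 ± 0.11 with Si1 and -0.08 ± 0.11 with Si6 (adjusted p = 0.964 and 0.659). On the average of its probe sets Slc1a5 rose by 0.47 with Si1 and 0.33 with Si6.

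**Figure D2:**
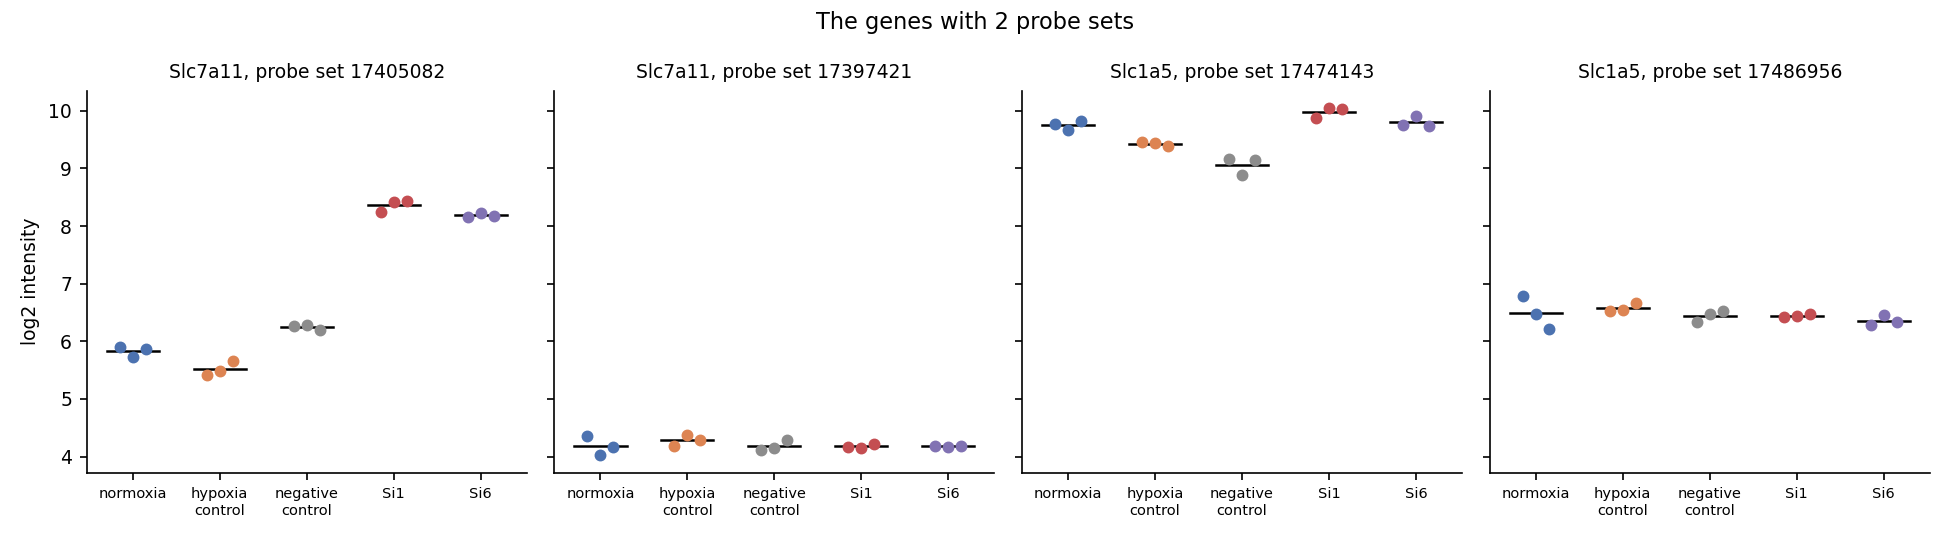
Log2 intensity of both probe sets of Slc7a11 and of Slc1a5 on each of 15 arrays, with group means as lines, on a shared axis. The dimmer probe set of each gene, at means of 4.20 and 6.46, shows none of the rise with Si1 and Si6 seen in the brighter.

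The neutral amino acid exchanger Slc1a4 rose with both siRNAs from a level that did not differ detectably between normoxia and the controls. It read 8.02, 7.81 and 7.87 in normoxia, 7.97, 7.99 and 7.73 in the hypoxia control, 7.77, 7.91 and 7.80 in the negative control, 9.51, 9.80 and 9.83 in Si1 and 9.27, 9.29 and 9.22 in Si6. The arrays of the first 3 groups overlapped, and Si6 and then Si1 lay above them. Its rise was 3.69-fold with Si1 (1.88 ± 0.09, adjusted p = 2.8e-10) and 2.69-fold with Si6 (1.43 ± 0.09, adjusted p = 1.3e-08).

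Slc7a1, the carrier of arginine and lysine, combined a fall with hypoxia and a rise with the siRNAs to above the normoxic level. It read 10.24, 10.32 and 10.33 in normoxia, 9.91, 9.85 and 9.85 in the hypoxia control, 9.61, 9.50 and 9.45 in the negative control, 11.05, 11.14 and 11.13 in Si1 and 10.99, 10.95 and 10.87 in Si6. No group overlapped another. The rise was 3.01-fold with Si1 (1.59 ± 0.06, adjusted p = 1.2e-11) and 2.67-fold with Si6 (1.42 ± 0.06, adjusted p = 8.4e-11).

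The remaining light chain and the glutamine carriers rose less. Slc7a5 rose by 1.22 ± 0.06 with Si1 (adjusted p = 2.7e-10) and by 1.17 ± 0.06 with Si6 (adjusted p = 9.3e-10). Slc1a5, at 9.06 ± 0.15 in the negative control, was at 9.99 ± 0.09 in Si1 and 9.80 ± 0.09 in Si6, rises of 0.92 ± 0.08 and 0.74 ± 0.08 (adjusted p = 1.1e-07 and 2.3e-06). Slc38a1 rose from 10.98 ± 0.02 to 11.44 ± 0.03 in Si1 and 11.42 ± 0.02 in Si6, by 0.45 ± 0.04 and 0.43 ± 0.04 (adjusted p = 7.6e-07 and 2.2e-06). Its relative Slc38a2 varied least of the 8 members, its group means spanning 0.18 against 2.85 for Slc7a11. It rose by 0.18 ± 0.04 with Si1 (adjusted p = 0.003) and was at 0.11 ± 0.04 with Si6 (adjusted p = 0.070). The Si6 change passed after median centring (0.15, adjusted p = 0.034), with the dimmer genes left out (adjusted p = 0.022) and with trended robust moderation (adjusted p = 0.006).

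The heavy chain Slc3a2 changed by little in every comparison. It read 12.76, 12.77 and 12.74 in normoxia, 12.52, 12.51 and 12.56 in the hypoxia control, 12.27, 12.27 and 12.35 in the negative control, 12.40, 12.42 and 12.42 in Si1 and 12.61, 12.65 and 12.61 in Si6. The groups did not overlap, and all lay within 0.46 between the lowest and highest group mean. Against the negative control it rose with Si6, by 0.33 ± 0.04 (adjusted p = 3.1e-05), and was at 0.12 ± 0.04 with Si1 (adjusted p = 0.051). The Si1 change passed after quantile normalization (0.13, adjusted p = 0.017), median centring (0.16, adjusted p = 0.021), with the dimmer genes left out (adjusted p = 0.016), with trended robust moderation (adjusted p = 0.001) and without negative control replicate c (0.14, adjusted p = 0.033).

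The choice of control mattered for the size of these rises, since the negative control lay below the hypoxia control for 5 members. Set against the hypoxia control instead, a comparison added after the data were seen, Si1 had 7 of 8 members higher and 1 lower (20.9% and 17.1% of all genes), and Si6 had 6 higher and 0 lower (16.9% and 12.9%). Slc7a11 was then at 2.85 ± 0.07 with Si1 and 2.67 ± 0.07 with Si6, above its rises against the negative control. Slc1a4 was at 1.82 ± 0.09 and 1.36 ± 0.09, a little below. Slc7a1 rose less than against the negative control, by 1.24 ± 0.06 and 1.07 ± 0.06. So did Slc7a5 (0.72 ± 0.06 and 0.68 ± 0.06), Slc1a5 (0.55 ± 0.08 and 0.37 ± 0.08) and Slc38a1 (0.16 ± 0.04 and 0.15 ± 0.04). Slc3a2 turned direction with Si1, at -0.12 ± 0.04 (adjusted p = 0.046), and did not pass with Si6, at 0.09 ± 0.04 (adjusted p = 0.141).

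**Figure D3:**
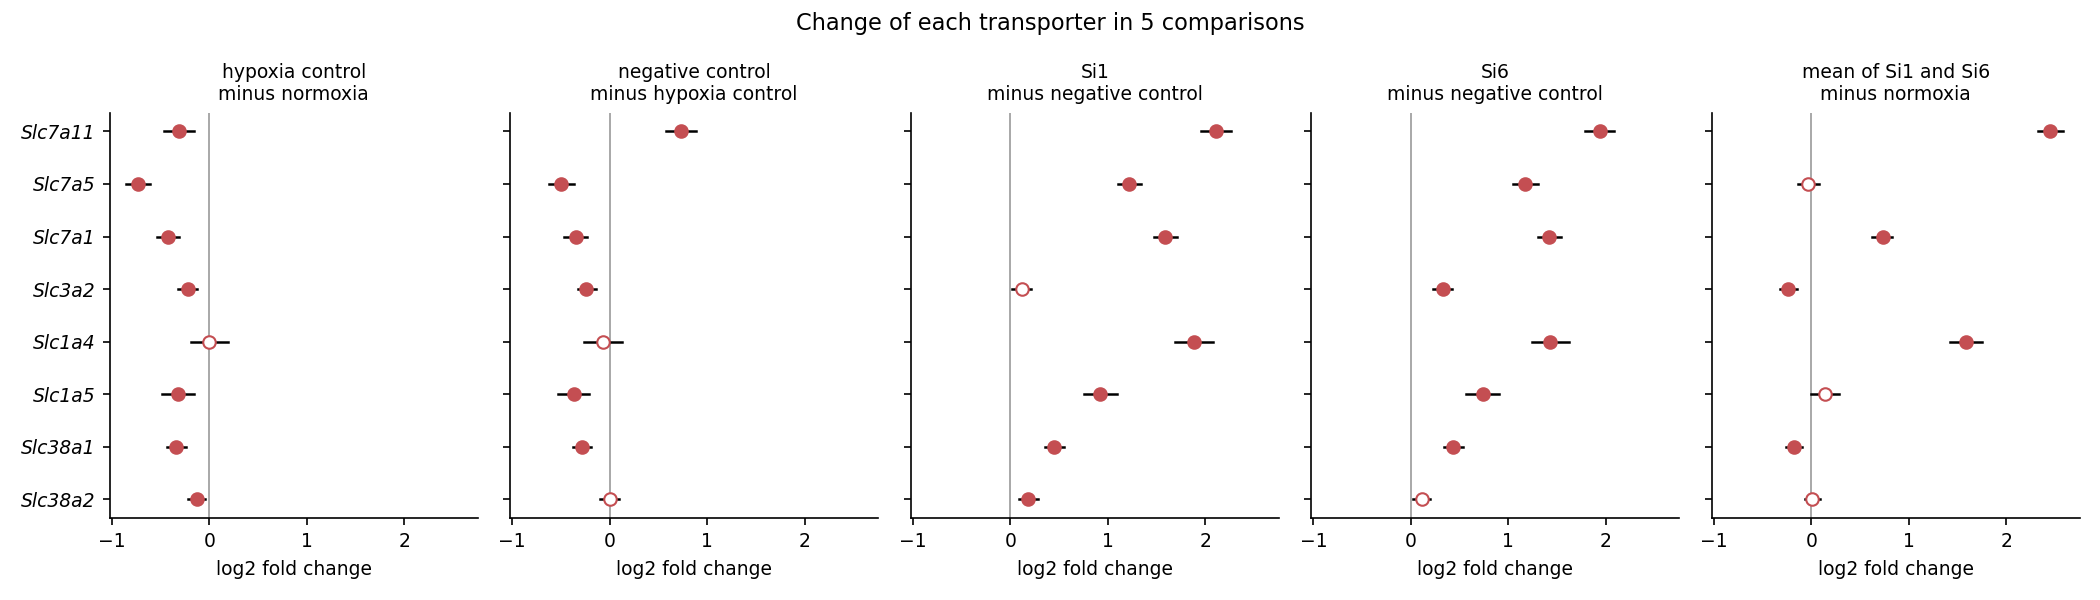
Log2 fold change of each transporter in 5 comparisons, with limma's 95% interval as a line; filled points passed the test at an adjusted p of 0.05 and open points did not. All points of the Si1 and Si6 panels lie above 0, and in the last panel Slc7a11, Slc1a4 and Slc7a1 lie above 0 while Slc7a5 and Slc38a2 lie at -0.03 and 0.01.

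Set against normoxic cells, the Hif1a-depleted hypoxic cells fell into several patterns. In the mean of Si1 and Si6, 3 of 8 transporters were higher and 2 lower, where 20.8% of all genes were higher and 16.7% lower. With the dimmest 50% of genes left out, 7394 of 11090 genes were called in either direction. Higher were Slc7a11 by 2.45 ± 0.06 (adjusted p = 3.9e-13), Slc1a4 by 1.59 ± 0.08 (adjusted p = 3.1e-10) and Slc7a1 by 0.73 ± 0.05 (adjusted p = 7.5e-09). Lower were Slc3a2, by 0.24 ± 0.04 (adjusted p = 1.2e-04), and Slc38a1, by 0.18 ± 0.04 (adjusted p = 0.001). The 3 others did not pass: Slc7a5 was at -0.03 (95% interval -0.14 to 0.08), Slc38a2 at 0.01 (-0.07 to 0.09) and Slc1a5 at 0.14 (0 to 0.28, adjusted p = 0.115).

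Si1 and Si6 differed in 3 of the 8 transporters, 2 higher and 1 lower in Si1, where 14.5% of all genes were higher and 13.4% lower. With the dimmest 50% of genes left out, 5994 of 11090 genes were called in either direction. Slc1a4 was higher in Si1 by 0.45 ± 0.09 (adjusted p = 0.001) and Slc7a1 by 0.17 ± 0.06 (adjusted p = 0.029), while Slc3a2 was lower, at -0.21 ± 0.04 (adjusted p = 0.002). The call of Slc7a1 was lost after median centring (adjusted p = 0.058) and without replicate b or c of either siRNA (adjusted p = 0.062 to 0.124). Slc7a11 (0.18, 95% interval 0.03 to 0.33) and Slc1a5 (0.19, 0.02 to 0.35) did not pass (adjusted p = 0.074 and 0.087). Without Si1 replicate a both passed, at 0.23 and 0.24 (adjusted p = 0.029 and 0.048), which made 5 of 8. Both also passed after quantile normalization (adjusted p = 0.035 and 0.048). Slc1a5 passed too with the dimmer genes left out (adjusted p = 0.038), with trended robust moderation (adjusted p = 0.037) and without Si6 replicate b (adjusted p = 0.047). The intervals of Slc7a5 (-0.07 to 0.17), Slc38a1 (-0.08 to 0.11) and Slc38a2 (-0.02 to 0.16) held 0. Hif1a itself was lower in Si1 than in Si6 by 0.28 ± 0.06 on the log2 scale, and the melanocyte marker means given above were lower in Si1.

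By level, the 8 fell into orders that differed mainly in where normoxia stood. Slc7a1, Slc1a4 and Slc1a5 ran from the negative control through the hypoxia control, normoxia and Si6 to Si1. The neighbours that overlapped were the negative control, hypoxia control and normoxia for Slc1a4, and normoxia, Si6 and Si1 for Slc1a5. Slc7a5 and Slc38a1 ran from the negative control through the hypoxia control, Si6 and Si1 to normoxia. For Slc7a5 Si6 overlapped Si1, and Si1 overlapped normoxia. For Slc38a1 Si6 and Si1 overlapped, and normoxia lay 0.17 above Si1. Slc38a2 ran from the negative control and the hypoxia control, which overlapped, through Si6 and normoxia, which overlapped, to Si1. Slc3a2 ran from the negative control through Si1, the hypoxia control and Si6 to normoxia, with steps of 0.09 to 0.13 and no overlap. Slc7a11 alone had its lowest level in the hypoxia control.

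The genes most like each member were ranked by Pearson's r over the 15 arrays, among 1508 other genes whose group means spanned at least 1 log2 unit. The arrays share their groups, so these values describe the profile and carry no test. Nearest to Slc7a11 was the stress transcription factor Ddit3 (0.988), with Cdr2 (0.988) and Pole2 (0.984). Slc1a4 was nearest to the aminoacyl-tRNA synthetases Iars (0.989) and Tars (0.983) and to asparagine synthetase Asns (0.983). Slc7a1 was nearest to another synthetase, Mars1 (0.986), then Spryd7 (0.984) and the serine enzyme Shmt2 (0.983). Slc7a5 was nearest to the iron transporter Slc11a2 (0.967), Slc1a5 to Nubp2 (0.977), Slc38a1 to Nbas (0.969), Slc38a2 to Mdn1 (0.946) and Slc3a2 to Dkk3 (0.980). Among the members, r over the 15 arrays was 0.96 for Slc7a11 with Slc1a4, 0.95 for Slc7a5 with Slc1a5, and, with the heavy chain Slc3a2, 0.67 for Slc7a5 and -0.15 for Slc7a11.

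Other transporters of the plasma membrane changed in both directions. Of 24 measured, 4 rose and 5 fell in the hypoxia control against normoxia, where 9.87% of all genes rose and 11.2% fell. With Si1 7 rose and 3 fell (20.2% and 14.8% of all genes), and with Si6 3 rose and 4 fell (17.0% and 11.9%). The medians in these comparisons were 0.02, -0.03 and -0.03. The arginine and leucine exchanger Slc7a6, another partner of SLC3A2, rose by 1.31 ± 0.07 with Si1 (adjusted p = 1.7e-09) and 0.51 ± 0.07 with Si6 (adjusted p = 6.1e-05). Slc7a8 (LAT2), which carries neutral amino acids with the same heavy chain, fell with Si1, at -1.17 ± 0.05 (adjusted p = 1.6e-10), and was higher in Si6 than in Si1 (-1.38 ± 0.05 for Si1 minus Si6, adjusted p = 9.1e-11). The glutamine carrier Slc38a3 rose with hypoxia, by 1.06 ± 0.08 (adjusted p = 1.3e-07), and was at 0.75 ± 0.08 with Si1 and -1.42 ± 0.08 with Si6 (adjusted p = 1.4e-06 and 3.2e-09), a difference of 2.17 ± 0.08 (adjusted p = 6.0e-11). It was also higher in the negative control than in the hypoxia control, by 1.32 ± 0.08 (adjusted p = 4.1e-08). Against the hypoxia control Slc38a3 was at 2.07 ± 0.08 with Si1 (adjusted p = 1.5e-11) and did not pass with Si6, at -0.10 ± 0.08 (adjusted p = 0.387). The count with Si6, 7 genes in all, was 4 without Si6 replicate b and 4 with the hypoxia control in place of the negative control. The count with Si1, 10, became 6 with that control. These were 4 higher and 2 lower with Si1 (20.9% and 17.1% of all genes). With Si6 they were 1 higher and 3 lower (16.9% and 12.9%).

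Transporters and sensors of the lysosome fell with hypoxia. Of 8 measured 7 fell and 0 rose (11.2% and 9.87% of all genes), with a median of -0.38, led by the proton-coupled carrier Slc36a1 at -0.49 ± 0.06 (adjusted p = 1.3e-05), the nucleoside carrier Slc29a3 at -0.44 ± 0.06 (adjusted p = 3.6e-05) and the glutamine exporter Slc38a7 at -0.40 ± 0.06 (adjusted p = 1.2e-04). In the negative control 3 of the 8 were lower than in the hypoxia control and 0 higher (7.51% and 7.80% of all genes), among them Slc38a7 and the cystine exporter Ctns. Against the negative control 6 rose and 0 fell with Si6 (17.0% and 11.9% of all genes), among them Slc36a1 at 0.85 ± 0.06 (adjusted p = 2.6e-08). With Si1, 2 rose and 2 fell (20.2% and 14.8%), and Ctns was at -0.63 ± 0.05 (adjusted p = 1.0e-07). These counts depended on the control. Against the hypoxia control 4 rose and 1 fell with Si6 (16.9% and 12.9% of all genes). With Si1, 1 rose and 4 fell against that control (20.9% and 17.1%). Ctns with Si6 went from 0.35 ± 0.05 to -0.08 ± 0.05 (adjusted p = 8.2e-05 and 0.303). Between the siRNAs 6 of the 8 were lower in Si1 and 0 higher (13.4% and 14.5% of all genes), and Ctns differed by -0.98 ± 0.05 (adjusted p = 2.2e-09).

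Most listed genes of the ATF4 and amino acid response rose with both siRNAs, on a list chosen with earlier results of these data known. Of 26 measured, 18 rose and 3 fell with Si1 (20.2% and 14.8% of all genes) and 18 rose and 2 fell with Si6 (17.0% and 11.9%), with medians of 0.63 and 0.56. Against the hypoxia control 18 rose and 2 fell with Si1 (20.9% and 17.1% of all genes). With Si6, 19 rose and 4 fell against that control (16.9% and 12.9%). The glutathione-degrading enzyme Chac1 rose by 2.27 ± 0.08 and 1.83 ± 0.08 (adjusted p = 1.3e-11 and 3.2e-10), the folate enzyme Mthfd2 by 1.86 ± 0.07 and 1.54 ± 0.07 (adjusted p = 3.3e-11 and 5.5e-10), and Asns by 1.66 ± 0.07 and 1.55 ± 0.07 (adjusted p = 4.5e-11 and 2.5e-10). Atf4 mRNA, singled out after its values were seen, rose by 0.70 ± 0.06 and 0.61 ± 0.06 (adjusted p = 2.5e-07 and 1.9e-06). In the hypoxia control against normoxia 5 of the 26 rose and 8 fell (9.87% and 11.2% of all genes), with a median of -0.04. Ddit4, an inhibitor of mTORC1 signalling, rose by 1.84 ± 0.09 (adjusted p = 7.6e-10) and Shmt2 fell, at -0.76 ± 0.07 (adjusted p = 7.3e-07). With the siRNAs Ddit4 was lower than in the negative control, at -0.24 ± 0.09 with Si1 and -0.85 ± 0.09 with Si6 (adjusted p = 0.045 and 2.1e-06). In the negative control against the hypoxia control 2 rose and 3 fell, shares near the 7.80% and 7.51% of all genes, and this count of 5 was 3 without replicate a or b of either group.

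Among 10 measured genes of glutathione, glutamate and sulphur amino acid metabolism, 6 rose and 1 fell with Si1 (20.2% and 14.8% of all genes) and 7 rose and 0 fell with Si6 (17.0% and 11.9%). The aspartate aminotransferase Got1 rose by 1.40 ± 0.05 with Si1 and 1.00 ± 0.05 with Si6 (adjusted p = 1.6e-11 and 1.2e-09). Gclc, the catalytic subunit of the first enzyme of glutathione synthesis, rose by 0.60 ± 0.06 and 0.94 ± 0.06 (adjusted p = 6.7e-07 and 1.3e-08). Glul, which makes glutamine, was lower with Si1, at -0.39 ± 0.05 (adjusted p = 2.8e-05). Against the hypoxia control it was lower with both, at -0.73 ± 0.05 and -0.35 ± 0.05 (adjusted p = 2.3e-08 and 1.0e-04). Against that control 7 of the 10 rose and 2 fell with Si1 (20.9% and 17.1% of all genes). With Si6, 7 rose and 1 fell (16.9% and 12.9%). With hypoxia 5 of the 10 fell and 0 rose (11.2% and 9.87% of all genes), among them Got1 at -0.57 ± 0.05 (adjusted p = 7.7e-07) and Gclc at -0.36 ± 0.06 (adjusted p = 2.9e-04), and 3 passed on the average of each gene's probe sets.

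**Figure D4:**
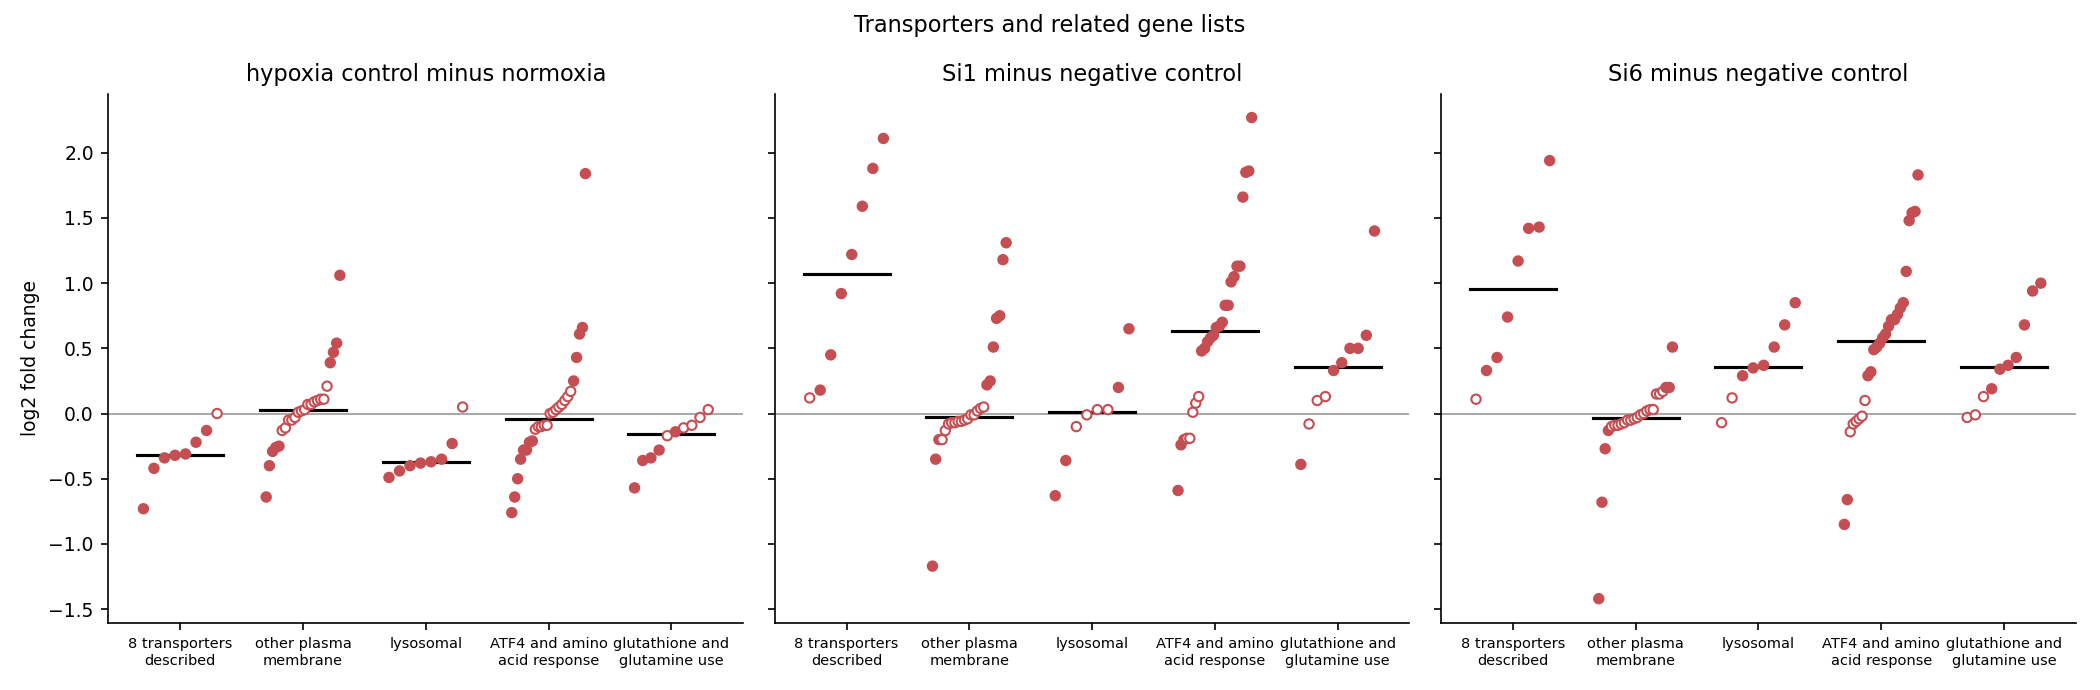
Log2 fold change of the 8 transporters and of the genes of 4 related lists in 3 comparisons; each point is a gene, filled where it passed the test, and lines are list medians. With the siRNAs the medians are 1.07 and 0.95 for the 8 transporters and -0.03 and -0.03 for the other plasma membrane transporters.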

How the data were processed

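The authors deposited 1 table of log2 intensities, with 41345 probe sets on 15 one-colour Affymetrix arrays. Per the submitters' processing notes the tools were RMA and Partek, with no version or setting stated. Such normalization hides a change common to all genes and compresses changes of dim genes. Exactly 1 symbol was annotated for 23521 probe sets, several for 1814 and none for 16010. Entrez identifiers of 23328 were found in the RefSeq table (GRCm38.p6), which changed 0 symbols. Where several probe sets measured a gene (1082 genes), that with the highest mean was used.

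A linear model with a mean for each of the 5 groups was fitted over the 15 arrays (limma 3.58.1, R 4.3.3), followed by eBayes moderation, two-sided tests and Benjamini-Hochberg adjustment over 22180 genes. The number of arrays limits the precision, and p-values measure the spread between these cultures. The members, gene lists, markers and motifs were chosen with earlier results of these data known. Named genes are the members, up to 4 of the largest called changes per list and comparison, and the 3 genes most like each member. Alternatives were quantile normalization, median centring, leaving out the dimmest 50% of genes, averaging probe sets, trended and robust moderation, a replicate block, leaving out each array in turn, and, added after the data were seen, the hypoxia control in place of the negative control.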

Additional observations from a re-analysis of the deposited data

How the results depend on the processing

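The number of members called stayed within 1.5 times the reported one under every alternative for all comparisons except Si1 against Si6, where 3 became 5 after quantile normalization and ranged from 2 to 5 when 1 array was left out. The direction of 1 member change reversed: with the hypoxia control in place of the negative control, chosen after the data were seen, Slc3a2 with Si1 was at -0.12, and its rise with Si6 (0.09) no longer passed. With the replicate letter as a replicate block the members called were 6 in the hypoxia comparison, where Slc38a2 dropped out, and 7 with each siRNA, and no other call of a member changed. Deviations from the group mean of arrays with the same letter correlated at -0.22 to 0.21, over 0.1 in 3 of 30 pairs, and 5 of 15 arrays correlated best with their own letter, so arrays were not paired. The dimmest 50% of genes included Slc7a11, which has no value there. The smaller changes of Slc7a11 and Slc1a5 on averaged probe sets come from averaging with a dimmer probe set whose changes did not pass. The calls of Slc38a2 with hypoxia and of Slc7a1 between the siRNAs were lost when single arrays were left out and after median centring. No probe set has a detection call in the deposited table, so signal over background could not be judged.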
